A study of Rattus norvegicus with 4 samples.

Results

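Expression of 10 neuronal genes was followed in the rat carotid body (CB), a sensory organ beside the carotid artery in which glomus cells respond to low oxygen. The genes were taken by symbol from the 32883 genes of the deposited count table: the neurofilament subunits Nefl, Nefm and Nefh, the related filament protein Prph, the tubulin Tubb3, the growth-associated genes Stmn2 and Gap43, the noradrenaline transporter Slc6a2, and the RNA-binding proteins Elavl3 and Elavl4. All 10 were found, each with 1 entry and whole-number counts in every library, and all 10 passed the filter on low counts. Poly A+ RNA, selected from total RNA of CBs from Sprague Dawley rats aged 5 days (neonates) or 21 days (adults), was sequenced. There were 2 libraries per age and 4 in all. Per the series text, each library pooled the CBs of 6 pups or of 3 older rats, and both ages came from litters of purchased pregnant rats with no treatment named, while the paper names larger pools and more replicates and states that both sexes were included. Nothing states which litter went into which library, so p-values measure only the spread between these pools.

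Neurofilaments are heteropolymers that fill the axon: Nefl forms the core, Nefm and Nefh carry long side arms, and Prph (peripherin) joins them in peripheral neurons. Tubb3 is a beta-tubulin typical of neurons, Stmn2 (stathmin 2, or SCG10) and Gap43 act in the growth cone, and the Elavl (Hu) proteins bind and stabilise neuronal mRNAs. Slc6a2 takes noradrenaline back into sympathetic nerve endings. In the CB, neuronal genes are active in glomus cells, which derive from the neural crest, while the organ also receives sympathetic fibres from the neighbouring superior cervical ganglion and holds some ganglion cells of its own.

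Totals per library ran from 36286191 to 39476110 estimated counts. At that depth 3 counts, taken as the floor of detection, equal 0.0760 to 0.0827 CPM (counts per 1000000), a bound that covers counting error only. Values below are normalised CPM, that is, CPM after TMM scaling, whose factors were 0.902 and 0.935 in neonates and 1.08 and 1.10 in adults. Glomus cell markers were present in every library, with Th at 837 CPM or more and Chga at 661 CPM or more. Parathyroid markers set the neonatal libraries apart, since Pth reached 1774 CPM in the first replicate and 208 CPM in the second while adult libraries held no Pth count. Results are therefore also given without neonate replicate 1 wherever that alters a call.

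Promoter sequences from RefSeq on the assembly GRCr8, which is not the build the reads were mapped to, were matched by symbol for 4 of the 10 genes. These 4 are shown because they were the ones matched, and they include a gene called higher in neonates (Tubb3, 2.85-fold), 2 with smaller differences (Prph and Elavl4) and Elavl3, which was lower in neonates. Each runs 5′ to 3′ over 250 bases before and 50 after the annotated start, with capitals marking TATAA and GGGCGG on either strand.
Tubb3, chr19:68365437-68365736 (+): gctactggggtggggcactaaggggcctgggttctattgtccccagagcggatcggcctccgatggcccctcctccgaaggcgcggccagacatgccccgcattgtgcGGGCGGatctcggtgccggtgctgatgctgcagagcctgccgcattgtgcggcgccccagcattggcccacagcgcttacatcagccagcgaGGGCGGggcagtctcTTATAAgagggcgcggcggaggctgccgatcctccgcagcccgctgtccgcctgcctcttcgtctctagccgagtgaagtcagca
Prph, chr7:132097039-132097338 (+): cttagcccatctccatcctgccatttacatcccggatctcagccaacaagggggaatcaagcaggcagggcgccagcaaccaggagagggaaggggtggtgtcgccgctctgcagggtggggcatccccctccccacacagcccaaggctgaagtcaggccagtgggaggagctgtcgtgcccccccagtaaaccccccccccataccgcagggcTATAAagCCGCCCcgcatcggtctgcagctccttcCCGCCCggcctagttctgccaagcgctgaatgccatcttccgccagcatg
Elavl3, chr8:28858964-28859263 (-): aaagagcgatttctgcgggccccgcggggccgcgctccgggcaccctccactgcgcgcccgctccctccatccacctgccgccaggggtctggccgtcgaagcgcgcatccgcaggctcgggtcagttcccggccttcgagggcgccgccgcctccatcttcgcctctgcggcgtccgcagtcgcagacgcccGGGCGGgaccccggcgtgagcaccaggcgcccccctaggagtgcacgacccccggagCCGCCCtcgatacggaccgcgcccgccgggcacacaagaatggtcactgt
Elavl4, chr5:130367614-130367913 (-): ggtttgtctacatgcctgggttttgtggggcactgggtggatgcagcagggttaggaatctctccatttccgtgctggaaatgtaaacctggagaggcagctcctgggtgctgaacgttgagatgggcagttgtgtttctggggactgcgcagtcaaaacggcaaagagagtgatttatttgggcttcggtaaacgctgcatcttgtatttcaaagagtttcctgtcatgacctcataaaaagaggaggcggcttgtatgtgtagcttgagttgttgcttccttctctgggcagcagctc
TATAA, the core of a TATA box, first matched 35 bases before the start in both Tubb3 and Prph. In Tubb3 the matches on the 2 strands overlap by all but 1 base, and neither Elavl promoter held the motif, which 26.1% of the 27457 promoters of this length hold. GGGCGG, the GC box, was found 2 times each in Tubb3, Prph and Elavl3, and 34.9% of all promoters hold it. TGACGTCA, the cAMP response element, was in none of the 4 and in 1.91% of all promoters, and the E-box CANNTG, present in 71.6%, was found in Elavl3 and Elavl4. CpG pairs numbered 42 in Elavl3, 26 in Tubb3, 13 in Prph and 7 in Elavl4, against a median of 7 over all promoters. Nefl and Nefm, for which no promoter is shown, lie next to each other on chromosome 15 in GRCr8 with 1 pseudogene between them.

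Of the 10 genes, 9 were higher in neonates and 1, Elavl3, was lower in neonates, all passing an adjusted p of 0.05 (quasi-likelihood test of edgeR, Benjamini-Hochberg over 13838 genes). Adjusted p alone separates little here, since 31.2% of all genes tested were higher in neonates by it and 31.1% were lower. With a fold change of at least 2 required as well, which is the rule used below for a gene called higher or lower, 5 of the 10 were called higher (Nefl, Nefm, Nefh, Tubb3 and Slc6a2), against 7.68% of all genes. None of the 10 was called lower by edgeR, DESeq2 or limma-voom, against 13.2% of all genes by edgeR, and 1 (Elavl3) was lower at an unadjusted p under 0.05 by each of these tools. On the log2 scale, neonate over adult, the 10 genes had a median change of 1.05 and all genes tested one of -0.0029. In bulk RNA, fewer cells of a type and less RNA per cell cannot be told apart. Scaled to library size alone, the median of all genes moved to -0.25 and that of the 10 genes to 0.80, 4 of the 10 were called higher, and higher genes made up 21.7% of all calls in place of 36.9%.

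**Figure D1:**
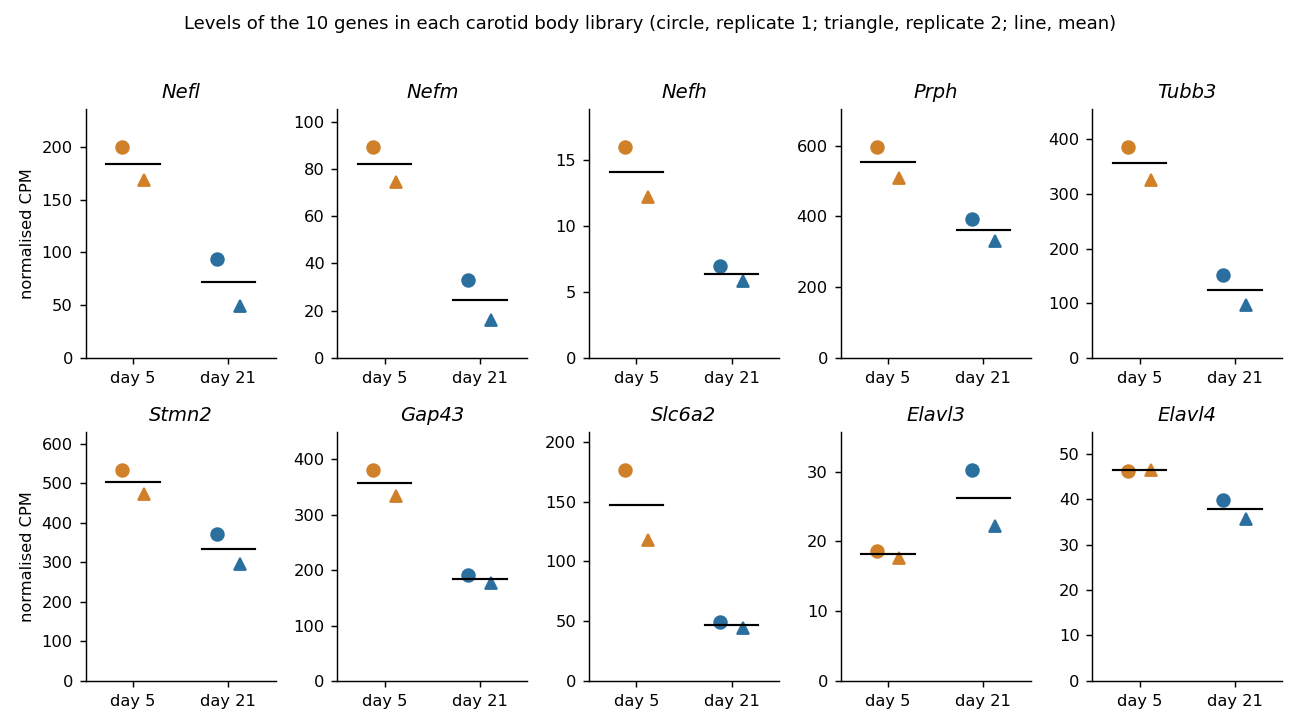
Normalised CPM (vertical axes, from 0) of the 10 genes in each library at day 5 and day 21, with circles for replicate 1, triangles for replicate 2 and a line for the mean of an age. Nefl, Nefm, Nefh, Tubb3 and Slc6a2 have both neonatal libraries far above both adult libraries, Elavl3 is the gene with the adult libraries above, and the adult pair is spread widely for Nefl, Nefm and Tubb3.

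The light neurofilament subunit Nefl (ENSRNOG00000013658) had 199.8 and 168 CPM in the neonatal libraries and 94.2 and 49.7 CPM in the adult libraries. The ages did not overlap, but adult replicate 2 held 52.7% of the level of adult replicate 1. The means were 184 ± 22.3 CPM in neonates and 71.9 ± 31.5 CPM in adults (SD, n = 2 each), a log2 fold change of 1.36 (SE 0.24, adjusted p = 0.0011 from edgeR). Without adult replicate 2 it was 0.97, just under 2-fold, with an adjusted p of 5.2e-05 from edgeR.

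The medium subunit Nefm (ENSRNOG00000013916), which has a long side arm, had 89.3 and 74.5 CPM in neonates against 33.1 and 16.0 CPM in adults. Both neonatal libraries were more than 2-fold above the higher adult library. This was the largest difference among the 10 genes, with a log2 fold change of 1.74 (SE 0.27, adjusted p = 0.00053 from edgeR), or 3.33-fold. Leaving out single libraries moved it between 1.31 (without adult replicate 2) and 2.35 (without adult replicate 1), so the size, though not the call, rests on the adult pair.

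The heavy subunit Nefh (ENSRNOG00000008716), the last of the triplet to appear in developing neurons, was at 16.0 and 12.2 CPM in neonates and at 6.996 and 5.82 CPM in adults. Its log2 fold change was 1.14 (SE 0.20, adjusted p = 0.0011 from edgeR). Its call was lost in 2 of the 14 alternatives: without neonate replicate 1 the log2 fold change was 0.93, and scaled to library size alone it was 0.89, with adjusted p of 0.0026 and 0.0039 from edgeR.

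Prph (ENSRNOG00000052880) changed less than the triplet. Its levels were 596 and 509 CPM in neonates and 392 and 331 CPM in adults, with means of 553 ± 61.8 and 361 ± 43.4 CPM (SD, n = 2 each). Both neonatal libraries lay above both adult libraries, and the difference was 1.53-fold (log2 0.61, SE 0.11, adjusted p = 0.0015 from edgeR), short of the 2-fold rule in all 14 alternatives.

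Tubb3 (ENSRNOG00000017209) had 386 and 326 CPM in neonates against 153 and 97.5 CPM in adults. The ages were far apart, and adult replicate 2 was again the lowest library. The log2 fold change was 1.51 (SE 0.18, adjusted p = 0.00013 from edgeR), and it stayed past 2-fold in each of the 14 alternatives, between 1.22 and 1.87.

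Gap43 (ENSRNOG00000001528), a growth cone protein that rises again in regenerating axons, had 381 and 334 CPM in neonates and 191 and 177 CPM in adults. Replicates of an age were close together and the ages were well apart, at 358 ± 33.4 against 184 ± 10.3 CPM (SD, n = 2 each). The log2 fold change was 0.96 (SE 0.094, adjusted p = 4.3e-05 from edgeR), so that the gene with the smallest error of the 10 fell just short of 2-fold. It was 1.06 without neonate replicate 2 and 1.02 without adult replicate 1, both past the rule.

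Stmn2 (ENSRNOG00000011705), a tubulin-binding protein of growing axons, had 534 and 473 CPM in neonates and 372 and 296 CPM in adults. The difference, 1.51-fold (log2 0.59, SE 0.12, adjusted p = 0.0024 from edgeR), was close in size to that of Prph and well below that of Tubb3. Neither Prph nor Stmn2 reached 2-fold when any single library was left out.

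Slc6a2 (ENSRNOG00000016311), the transporter that clears noradrenaline, had 176.8 and 118 CPM in neonates and 49.5 and 44.5 CPM in adults. Both neonatal libraries were more than 2-fold above both adult libraries, and here it was the neonatal pair that was spread. The log2 fold change was 1.65 (SE 0.17, adjusted p = 5.0e-05 from edgeR), or 3.13-fold, and 1.33 without neonate replicate 1, the library with the high Pth.

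Elavl3 (HuC, ENSRNOG00000013752) went the other way. It had 18.6 and 17.7 CPM in neonates and 30.3 and 22.2 CPM in adults (log2 fold change -0.53, SE 0.15, adjusted p = 0.013 from edgeR). The neonatal libraries were nearly equal, and the adult libraries were both higher but apart from each other. Without adult replicate 1 the log2 fold change was -0.29 and the adjusted p 0.13 from edgeR, so the difference passed the test only with that library. Over all 14 alternatives the adjusted p ran from 0.00044 to 0.13.

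Elavl4 (HuD, ENSRNOG00000023601), its close relative, had the smallest difference of the 10. Levels were 46.3 and 46.5 CPM in neonates and 39.8 and 35.7 CPM in adults (log2 fold change 0.30, SE 0.095, adjusted p = 0.022 from edgeR). This depends on the scaling: relative to the library total, the values were 41.6 and 43.4 CPM in neonates and 42.9 and 39.0 CPM in adults, which overlap, and edgeR then gave 0.053 with an adjusted p of 0.65, the highest of 14 alternatives that went down to 0.0097. Without adult replicate 2 the adjusted p was 0.20 from edgeR.

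**Figure D2:**
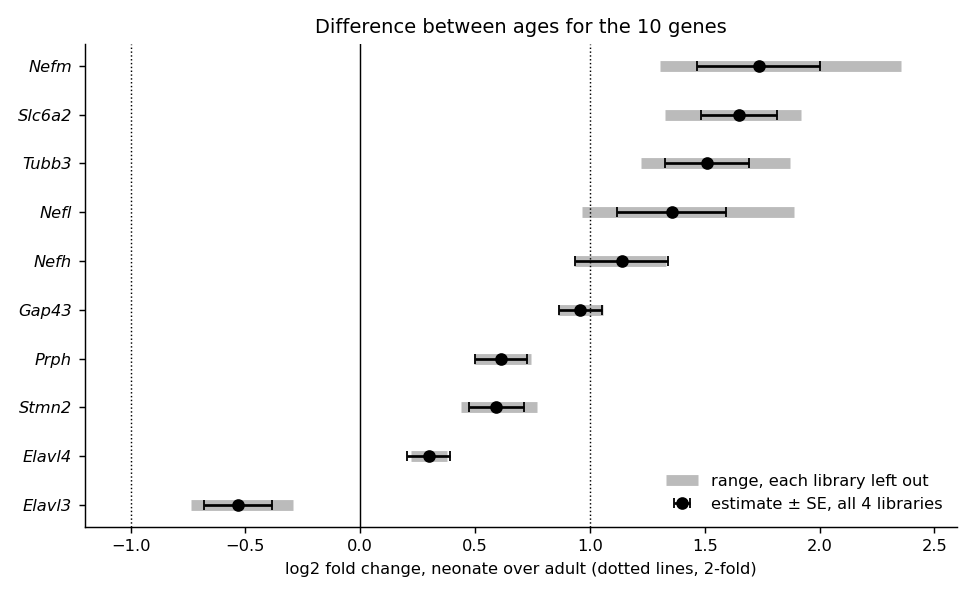
Log2 fold change, neonate over adult (horizontal axis), of the 10 genes, with points and bars for edgeR's estimate ± SE from all 4 libraries, grey bars for the range when each library was left out in turn, and dotted lines at 2-fold. Estimates run from 1.74 for Nefm to -0.53 for Elavl3, and the grey bars of Nefl, Nefh and Gap43 cross the 2-fold line.

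With normalised values, both neonatal libraries lay on one side of both adult libraries for all 10 genes, which also held for 83.0% of all genes tested. Several differences ranked high among those of all genes. The log2 fold change of Nefm exceeded that of 97.5% of genes tested, Slc6a2 97.2%, Tubb3 96.6% and Nefl 95.7%, while Elavl4 exceeded 66.8% and Elavl3 25.4%. Together the 10 genes took 0.220% and 0.194% of all counts in the neonatal libraries and 0.147% and 0.117% in the adult libraries.

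Within an age, the genes also differed together between the pools. All 10 were lower in adult replicate 2 than in adult replicate 1, from 48.4% of its level for Nefm, 52.7% for Nefl and 63.9% for Tubb3 up to 92.4% for Gap43. The Nefm ratio between the adult libraries was lower than that of all but 0.296% of genes tested. Between the neonatal libraries 9 of the 10 were lower in replicate 2, with Slc6a2 at 66.6% the farthest apart and Elavl4 at 100.4% the exception. Over 12 glomus cell markers the summed level was 10770 CPM in adult replicate 1 and 8647 CPM in adult replicate 2, over 4 fibroblast markers it was 8287 and 8698 CPM, and over 4 endothelial markers 780 and 786 CPM. In the neonatal libraries the glomus cell sum was 8860 and 7542 CPM, that of 10 Schwann and other glia markers was 1170 and 2330 CPM, and that of 3 parathyroid markers was 1797 and 212 CPM. The part of these differences in the values of the 10 genes was not tested.

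A ratio of 2 genes within a library does not move with the scaling of that library, so 9 chosen pairs were compared on the log2 ratio of counts. Since counts were not divided by transcript length, only the shift of a ratio between ages can be read, not its level. In 8 of the 9 pairs the ages did not overlap, each with an exact two-sided permutation p of 0.333, the smallest that this test can give with 2 libraries against 2 (0.375 adjusted over the 9 pairs). No pair could pass it, and the ratios are given as descriptions. Of all single genes tested, 83.0% did not overlap between ages, and the share among other gene pairs was not computed. The count of pairs without overlap therefore does not set these pairs apart.

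Slc6a2 against Th, tyrosine hydroxylase, which makes the catecholamines of both glomus cells and sympathetic neurons, shifted most. The log2 ratio was -2.53 and -2.83 in neonates and -4.83 and -4.67 in adults, a difference of 2.07, or 4.20-fold. Both neonatal libraries were far above the adult pair. Against Dbh, which turns dopamine into noradrenaline, the shift was 0.32, with log2 ratios of -0.29 and -0.24 in neonates and -0.76 and -0.42 in adults, and it was 0.15 without adult replicate 1.

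Within the filament family, the ratio of Prph to Nefl was 0.81 lower in neonates on the log2 scale, at 1.58 and 1.60 against 2.06 and 2.73 in adults. Nefm to Nefl was 0.40 higher in neonates, at -1.16 and -1.18 against -1.51 and -1.63. For both ratios the neonatal libraries were nearly equal and the adult libraries farther apart, and without adult replicate 2 the shift of Prph to Nefl was -0.47. Nefh to Nefm was at -2.48 and -2.61 in neonates and at -2.24 and -1.46 in adults, 0.69 lower in neonates, and 0.30 lower without adult replicate 2. Nefh to Nefl overlapped between ages, at -3.64 and -3.78 against -3.75 and -3.09 (exact permutation p = 0.667).

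For the RNA-binding pair, Elavl4 to Elavl3 had a log2 ratio of 1.31 and 1.39 in neonates and of 0.39 and 0.68 in adults, a shift of 0.81. Stmn2 to Gap43 shifted the other way by 0.36, from 0.49 and 0.50 in neonates to 0.96 and 0.74 in adults. Tubb3 to Tubb2a, another neuronal beta-tubulin, was at 0.36 and 0.26 in neonates and at 0.22 and -0.26 in adults. The Elavl shift was thus as large as that of Prph to Nefl, while the tubulin shift, 0.33 with all libraries, was 0.090 without adult replicate 2 and 0.57 without adult replicate 1.

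**Figure D3:**
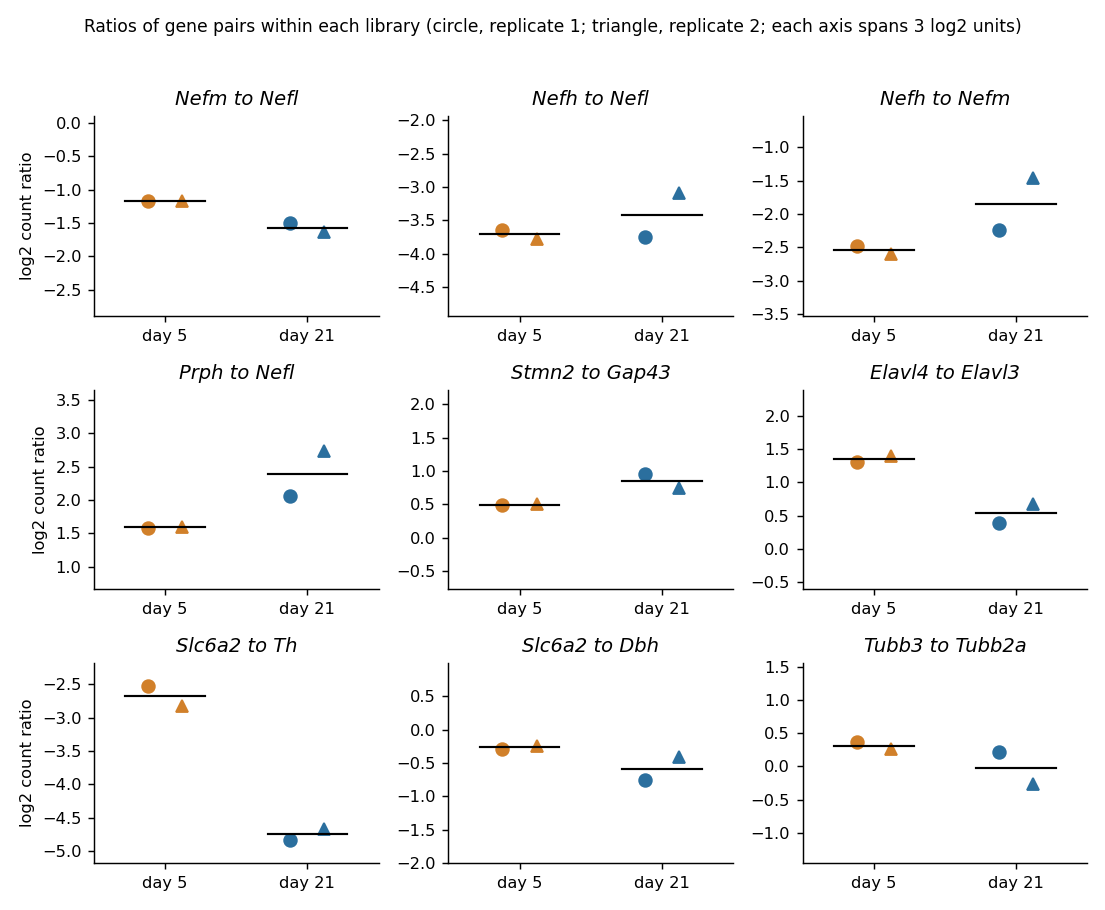
Log2 ratio of the counts of 2 genes within each library (vertical axes, each spanning 3 log2 units) at day 5 and day 21 for 9 pairs, with circles for replicate 1, triangles for replicate 2 and lines for the mean of an age. Slc6a2 to Th shows the widest gap between ages, 2.07, and Nefh to Nefl is the pair whose ages overlap.

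Other genes of the neuronal cytoskeleton, axon transport and neuronal RNA processing were taken from a list of 46, of which 45 passed the filter and Rbfox3 did not. Of these 5 were called higher in neonates (11.1%) and 7 lower (15.6%), against 7.68% and 13.2% of all genes. By this rule the list as a whole stood near the background. Scaled to library size alone the counts were 2 and 10. The background moved the same way: of all 13838 genes, 704 were then called higher and 2547 lower, in place of 1063 and 1821. At an adjusted p under 0.05 alone, 23 of the 45 were higher, 14 were lower and 8 did not pass. Of all genes tested, 31.2% were higher and 31.1% lower by that rule, so the list leaned to higher in neonates. Its median on the log2 scale was 0.34.

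The genes called higher were tubulins, a stathmin and the MARCKS proteins, which tie actin to the membrane. Tubb2b had 272 and 253 CPM in neonates and 81.9 and 62.7 CPM in adults (log2 fold change 1.86, SE 0.12, adjusted p = 6.5e-06 from edgeR). Marcksl1 was at 1.26, Tubb2a at 1.21, Marcks at 1.17 and Stmn1, the stathmin of many dividing cells, at 1.09. Stmn1 was at 0.96 without adult replicate 2, and Stmn1, Tubb2a and Marcks fell under 2-fold with library size alone. Tubb2a, Tubb2b, Marcksl1 and Stmn1 have fractional counts, which arise where reads match more than 1 gene copy or transcript. Over 5 markers of dividing cells, led by Mki67, the summed level was 494 and 419 CPM in neonates and 101.6 and 102.3 CPM in adults. All 5 were called higher in neonates, against 7.68% of all genes tested. The part of dividing cells in the tubulin and stathmin values was not tested.

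The 7 genes called lower in neonates belong to several families, other listed members of which were not called. Dpysl3, a collapsin response mediator protein, had 48.1 and 48.9 CPM in neonates and 226 and 185 CPM in adults (log2 fold change -2.08, SE 0.10, adjusted p = 2.1e-06 from edgeR), and its relative Dpysl2 was at -1.55. The RNA-binding Celf4 was at -1.74, the spectrin Sptbn1 at -1.54 and the ankyrin Ank2, which anchors it, at -1.30. Spectrin and ankyrin genes are active well beyond neurons, and Sptbn1 and Ank2 have fractional counts. The remaining 2, named after their values were seen, were Kif1a, which carries synaptic vesicle precursors, at -1.02 and Nova2 at -1.06. Kif1a was at -0.97 without adult replicate 2. Nova2, near 1 CPM in neonates, failed an adjusted p of 0.05 in DESeq2 (0.076) and in edgeR without neonate replicate 2 (0.083), without adult replicate 1 (0.13) or without adult replicate 2 (0.16).

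Some listed genes were to be given whatever their value. The filament protein Ina (alpha-internexin) had 464 and 442 CPM in neonates and 464 and 326 CPM in adults, which overlap (log2 fold change 0.20, SE 0.15, adjusted p = 0.26 from edgeR), and its sign turned with library size alone (-0.046) and without adult replicate 2 (-0.033). The axonal microtubule protein Mapt was 0.99 higher in neonates on the log2 scale (SE 0.12, adjusted p = 0.00011 from edgeR), at the edge of 2-fold, and past it in 5 alternatives: without neonate replicate 2 (1.01), without adult replicate 1 (1.19), and narrowly in limma-voom, with the block of replicate numbers and among protein-coding genes only. Mapt and Map2 have fractional counts. Map2, typical of dendrites, was at 0.48 (SE 0.090, adjusted p = 0.0016 from edgeR). Elavl2, the third neuronal Hu gene, had 30.6 and 35.4 CPM in neonates and 18.8 and 14.6 CPM in adults (log2 fold change 0.98, SE 0.14, adjusted p = 0.00032 from edgeR), and reached 2-fold without neonate replicate 1 (1.09) or adult replicate 1 (1.17). The 3 neuronal Hu genes thus stood at 0.98, 0.30 and -0.53.

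**Figure D4:**
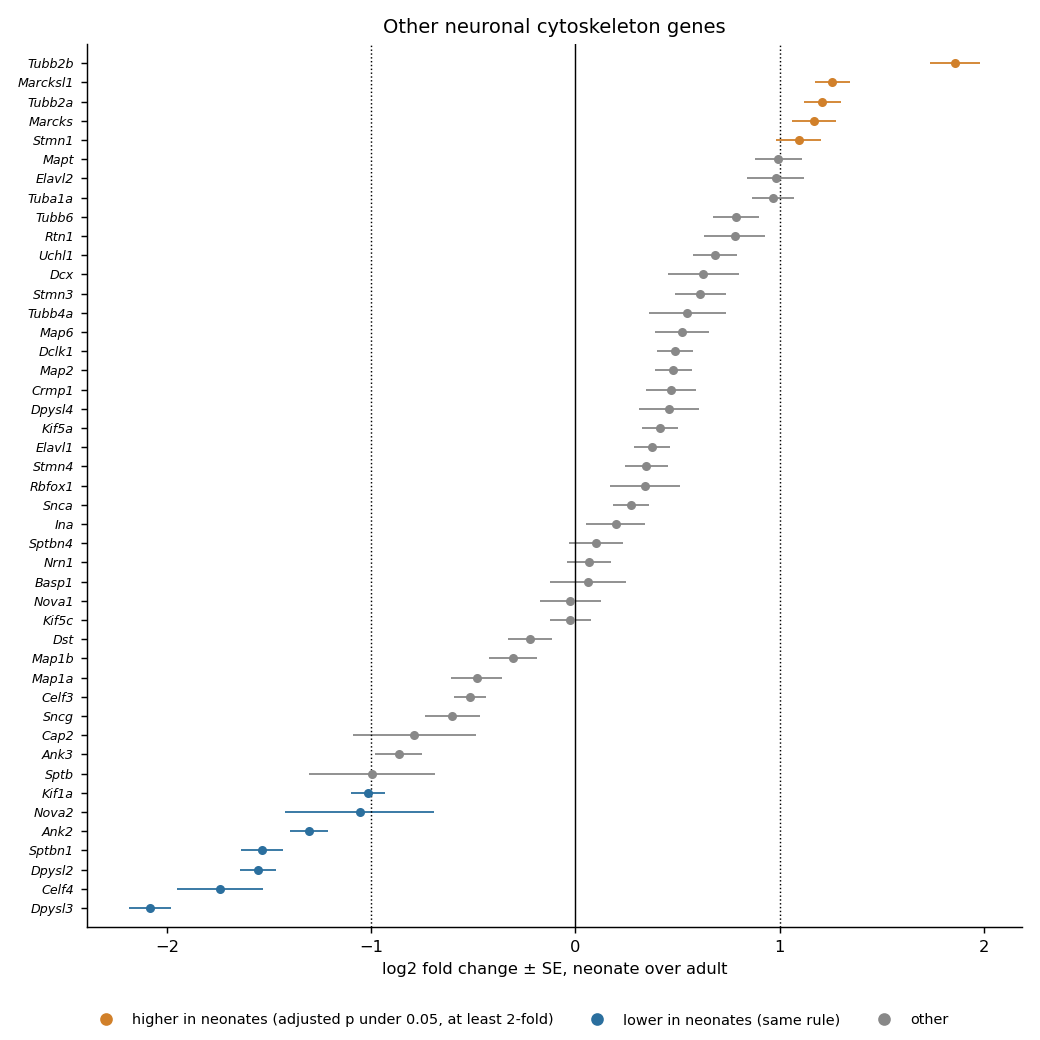
Log2 fold change ± SE from edgeR, neonate over adult (horizontal axis, dotted lines at 2-fold), of 45 other neuronal cytoskeleton genes, with orange for genes called higher in neonates, blue for genes called lower and grey for the rest. Tubb2b at 1.86 and Dpysl3 at -2.08 lie at the ends, and Ina at 0.20 is among the 8 that did not pass an adjusted p of 0.05.

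Genes of sympathetic neurons and catecholamine synthesis were taken from a list of 25, of which Insm1 was not matched by symbol, and Hand1 and Hmx1 did not pass the filter. Of the 22 tested, 5 were called higher in neonates (22.7%) and 2 lower (9.09%), against 7.68% and 13.2% of all genes, with a median log2 fold change of 0.049. Without neonate replicate 1, 3 were called higher.

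Npy, the peptide cotransmitter of many sympathetic neurons, was at 169 and 125 CPM in neonates and at 38.5 and 34.9 CPM in adults (4.01-fold, adjusted p = 8.2e-06 from edgeR) and has fractional counts. Ecel1, a peptidase of developing peripheral neurons, had a log2 fold change of 1.57.

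Dbh had 216 and 139 CPM in neonates and 83.9 and 59.4 CPM in adults (log2 fold change 1.31, SE 0.21, adjusted p = 0.00059 from edgeR), and 0.96 without neonate replicate 1. Gata3, a transcription factor of sympathetic neurons that is also active in the parathyroid, was at 12.8 and 5.74 CPM in neonates, against 3.63 and 2.87 CPM in adults. Its log2 fold change was 1.51 (SE 0.36, adjusted p = 0.0060 from edgeR), and leaving out the library with the high Pth, neonate replicate 1, lowered it to 0.82.

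Th, another gene of catecholamine synthesis, went the other way from Dbh. Th was at 1020 and 837 CPM in neonates and at 1407 and 1136 CPM in adults (log2 fold change -0.45, SE 0.13, adjusted p = 0.016 from edgeR). At an adjusted p under 0.05 alone, 8 of the 22 were higher in neonates, 4 were lower and 10 did not pass. Of all genes tested, 31.2% were higher and 31.1% lower by that rule.

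Marker lists of sympathetic and sensory neurons were also summed, which cannot show which neurons were present. The 10 sympathetic markers came to 1911 and 1566 CPM in neonates and 1102 and 888 CPM in adults. They include Slc6a2, Prph and Stmn2, so the sum in part repeats their values. In neonates Prph alone was at 596 and 509 CPM and Stmn2 at 534 and 473 CPM. Of the 10 markers 6 were called higher in neonates, Slc6a2 among them, against 7.68% of all genes tested. Without neonate replicate 1 the log2 fold changes of Dbh and Gata3 were 0.96 and 0.82, under 2-fold. For sensory neurons, 9 of 10 markers were matched by symbol and together reached 21.0 to 30.4 CPM in any library. The defining sensory marker Scn10a was at or under 0.507 CPM, P2rx3 was between 2.39 and 5.75 CPM, and 1 listed marker, Tlx3, singled out after its value was seen, had 0 counts in every library, which allows up to 0.0760 to 0.0827 CPM per library. Erythroid markers moved with age as well, with a sum of 2972 and 1772 CPM in neonates and 791 and 777 CPM in adults. Whether blood or other cells contribute to the values of the 10 genes was not tested.

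The genes whose values over the 4 libraries ran closest to those of Slc6a2 were Cdo1, Mms22l, Matk, Fanca and Efcab11. Their distances, the root of the summed squared differences of centred log2 CPM, ran from 0.0835 to 0.123. Closest to the mean profile of the 10 genes were Ppial4d, AABR07017145.2, Atp2b2 (a calcium pump of the cell membrane), Atp6v1c2 and Sf3b6, at 0.0532 to 0.0939. With 4 libraries such likeness is a description, and many genes share the split between ages that it rests on.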

How the data were processed

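Poly A+ RNA of pooled CBs was sequenced at day 5 (neonates) and day 21 (adults), with 2 libraries per age as the sample labels give them. The table the authors deposited holds estimated counts by gene, not normalised or filtered, from trimmed reads processed with STAR and Salmon 1.5.2 (Rnor 6.0). The methods name FPKM as the output of Salmon, but the values are estimated counts. Between 5.02% and 6.19% of genes per library carried a fraction, because Salmon divides ambiguous reads. Mitochondrially encoded genes took 18.7% and 15.6% of neonatal and 9.06% and 9.08% of adult counts.

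Counts were rounded. Of 32883 genes, 642 annotated as other than protein-coding in a RefSeq table (GRCr8, by symbol) were removed, 13665 had no biotype there and were kept, and a gene was tested if 2 or more libraries reached 1 CPM. Analysis used R 4.3.3, edgeR 4.0.16 (quasi-likelihood test, TMM, no covariates), limma 3.58.1, DESeq2 1.42.0, Python 3.11.15, pandas 2.3.3, numpy 2.4.6 and scipy 1.17.1. Calls required 2-fold or more and an adjusted p (Benjamini-Hochberg) under 0.05. SE is the log2 fold change over the square root of the quasi-likelihood F. Ratios used a pseudocount of 1 and an exact permutation test. For a symbol with several entries the one with more reads was used.

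The members, lists and pairs were chosen with earlier results of these data known. All 10 members were named. From the other neuronal and the sympathetic lists, up to 5 called genes per direction with the largest change and a fixed set (among them Ina, Th, Dbh, Npy, Tubb2a, Elavl2, Stmn1, Map2 and Mapt) were named, except that some are not reported here, and cell type markers by list, with defining markers singled out. Marker lists not described elsewhere were skeletal muscle (26.4 to 54.1 CPM summed), adipocytes (14.4 to 45.4 CPM) and T and B lymphocytes (4.51 to 8.67 CPM). Alternatives were DESeq2, limma-voom, RLE factors, library size alone, TMM without mitochondrially encoded and ribosomal protein genes, other filters and gene types, no minimum fold change, a replicate block and each library left out, which kept the genes tested. On simulated counts for these 13838 genes with 200 changed by 2 on the log2 scale, 200 were called with the right sign and 1 unchanged gene was called. The simulation gave every gene the same small spread, raised and lowered equal numbers of genes and held no other difference between ages. It therefore cannot show how well smaller changes, or genes with a wider spread between replicates, are called.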

Additional observations from a re-analysis of the deposited data

How the results depend on the processing

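The directions of the 10 genes held in all 14 alternatives that give a fold change. The number called higher stayed within 4 to 6, and was 9, with 1 called lower, when no minimum fold change was required. Their median log2 fold change was 0.80 with library size alone, and 0.90 to 1.19 when each library was left out. In the other neuronal cytoskeleton list the calls higher in neonates were 2 with library size alone and 4 to 9 when each library was left out, the most without adult replicate 1, and 23 with no minimum fold change, where 14 were lower. In the sympathetic and adrenergic list the calls higher were 3 to 5 when each library was left out, the fewest without neonate replicate 1, and those lower 1 to 2, the fewest without adult replicate 1. With no minimum fold change they were 8 and 4, a rule by which 31.2% of all genes tested were higher and 31.1% lower. The cause of these moves was not tested, other than that a rule without a fold minimum admits more genes. Replicate numbers are shared between ages. Over all genes, deviations of same-numbered libraries did not go together (r = -0.016 over 13838 genes, which are not independent replicates). The 10 genes themselves were lower in replicate 2 at both ages, except Elavl4 in neonates. Whether same-numbered libraries share a litter or batch was not tested, and this correlation cannot show it. A replicate block gave 5 of the 10 genes called higher, as without it, 6 of the other neuronal cytoskeleton list called higher and 7 lower, and 5 and 2 of the sympathetic and adrenergic list. Of the ratios, Nefh to Nefl moved to 0.035 without adult replicate 2 from -0.29, and the count of pairs without overlap was within 1.5 times of 8 in every alternative. Depth did not limit the 10 genes, the lowest count of which was 231, but 2 libraries per age limit the precision of every fold change given.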
